A study of Mus musculus with 13 samples.

Results

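N750F livers were set against Rb1 knockout livers 24 h after a carcinogen, a comparison of a changed binding site in the retinoblastoma protein with loss of the gene. All arrays described as the N750F mutant with diethylnitrosamine (DEN) and all described as floxed Rb1 with Cre and DEN were taken, 5 and 2 arrays of the 13 in the series. The other 6 arrays, untreated wild type (2), wild type with DEN (2) and heterozygous with DEN (2), entered the fit for the spread and serve as reference levels. Each array measured liver RNA of a mouse aged 14 days, and DEN had been injected into the peritoneum at 20 mg/kg. Knockout mice carried Rb1 with loxP sites around exon 19 and Cre from the albumin promoter, which acts in hepatocytes, so other liver cells should keep the gene. Wild type mice were floxed without Cre. Heterozygous mice had an allele with functional Rb1 and a floxed allele, plus Cre. For the N750F group the labels name the mutation, while its second allele and Cre are not stated. Nothing in the labels says whether livers were pooled. P-values here measure the spread between these arrays.

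The retinoblastoma protein holds E2F transcription factors in check and so restrains genes of S phase and mitosis until cyclin-dependent kinases phosphorylate it. A separate cleft of its pocket binds proteins that carry an LXCXE motif, among them viral oncoproteins and chromatin regulators, and N750F replaces a residue of that cleft. Hepatocytes convert DEN with cytochromes P450 into an agent that alkylates DNA. The comparison asks whether a liver with the altered cleft differs in RNA from a liver without the protein.

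No gene passed an adjusted p of 0.05 between the N750F and knockout-labelled arrays. The 2 knockout-labelled arrays differed from each other in the genes of cell division: array 1 had levels mostly within or above the N750F range, and array 2 had levels mostly below it. Set against both arrays, the clearest separation was lower RNA of the metallothioneins Mt1 and Mt2 and of the phosphatase gene Dusp1 in N750F livers, at adjusted p-values of 0.0739, 0.0739 and 0.0782 (limma). Dpysl2, a microtubule-binding protein of the dihydropyrimidinase family, also had an adjusted p of 0.0739, but its groups overlapped in level.

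Levels below are log2 of the quantile-normalized intensity plus 16. Differences are N750F minus knockout as fitted with array batch as a term, so they can depart from the difference of plain means. For some genes the departure is large. Ciapin1 was at -0.48 as fitted, and its N750F mean minus knockout-labelled arrays 1 and 2 was -1.19 and -1.45. Rb1 (probe set 10421526) was read first as the targeted gene. Its level was 8.23, 7.82, 8.43, 8.06 and 7.93 in N750F arrays 1 to 5, 7.92 in knockout-labelled array 1 and 6.57 in array 2. Array 1 lay inside the N750F range and array 2 below it. Wild type livers with DEN had 8.04 and 8.01, heterozygous livers with DEN 7.92 and 7.62, and untreated livers 7.27 and 7.15. The difference was 0.92 ± 0.31 (SE; adjusted p = 0.299). Where this probe set lies relative to exon 19 was not known here and non-hepatocytes contribute RNA, so the level does not check the label, and both arrays are called knockout-labelled.

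Array 2 also carried transcripts of skeletal muscle. Of 36 muscle genes measured, 24 were highest in it and 13 exceeded every other array by more than 1. Ttn, titin of the sarcomere, was at 13.59 there and at 5.35 in array 1, with 4.65 to 5.90 in N750F. Over the 23 muscle genes tested the mean level was 8.19 in array 2, 6.44 in array 1 and 6.34 to 6.60 in N750F. Their part in the other differences of array 2 was not tested. Both knockout-labelled arrays and N750F array 1 had high Y-linked RNA (means of 3 genes 9.45, 9.05 and 9.29), whereas N750F arrays 2 to 5 had 4.44 to 4.57 and high Xist (12.55 to 12.78). Both knockout-labelled arrays were in batch 1 with N750F arrays 1 to 3, and N750F arrays 4 and 5 were in batch 2. Median deposited intensities over the series were 48.2 to 82.99. The lowest was that of N750F array 4, and the knockout-labelled arrays had 77.1 and 76.9.

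Array 1 resembled the N750F arrays about as closely as they resembled each other. The median absolute log2 difference over 14953 genes was 0.24 to 0.38 between array 1 and each N750F array, and 0.17 to 0.41 within N750F. Array 2 differed from N750F by 0.36 to 0.46 and from array 1 by 0.35. Within batch 1 alone the ranges were 0.17 to 0.29 among N750F arrays, 0.24 to 0.27 for array 1 and 0.37 to 0.40 for array 2. Array 1 was thus as near to the N750F arrays as they were to each other within that batch, and array 2 lay outside both ranges there.

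By limma, 0 of 14953 genes passed (0%), the lowest adjusted p was 0.0739, and 1823 genes (12.2%) had an unadjusted p below 0.05, 945 higher in N750F (6.32%) and 878 lower (5.87%). A fitted difference above 1 in size was found for 292 genes (1.95%). For 10615 genes (71%) the 95% interval of the difference lay within 1 of 0 on the log2 scale. The median half-width of the intervals was 0.56. In simulated data of this design with 14953 genes, the model found 85% of genes changed by a log2 of 2 and 39% of those changed by 1. The simulated noise was independent between genes and of equal spread in all arrays. Shifts shared by many genes, as with the muscle RNA of array 2, were not simulated, so recovery in the real arrays may differ. Leaving out one knockout-labelled array changed the count. Against array 2 alone 351 genes were called higher in N750F (2.35%) and 160 lower (1.07%), whereas against array 1 alone 1 was higher (0.00669%) and 3 lower (0.0201%). In both of these fits the lone array is assumed to vary like the other groups. An exact permutation test of a single value over 5 and 2 arrays has 21 arrangements. With the smaller tail doubled it cannot go below 0.0952 (two-sided), and none is given.

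Genes of G2 and mitosis had list means that placed the knockout-labelled arrays on opposite sides of the N750F arrays. The mean level of 43 tested genes was 7.93, 8.19, 8.13, 8.36 and 8.35 in N750F arrays 1 to 5, 8.52 in knockout-labelled array 1 and 6.94 in array 2. Wild type livers with DEN had 6.27 and 6.21, heterozygous livers with DEN 6.00 and 5.85, and untreated livers 7.39 and 7.19. Array 1 thus lay above every N750F array, and array 2 lay between the untreated livers and the wild type livers with DEN. Array 1 exceeded array 2 for 42 of the 43 genes, with a median difference of 1.55.

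**Figure D1:**
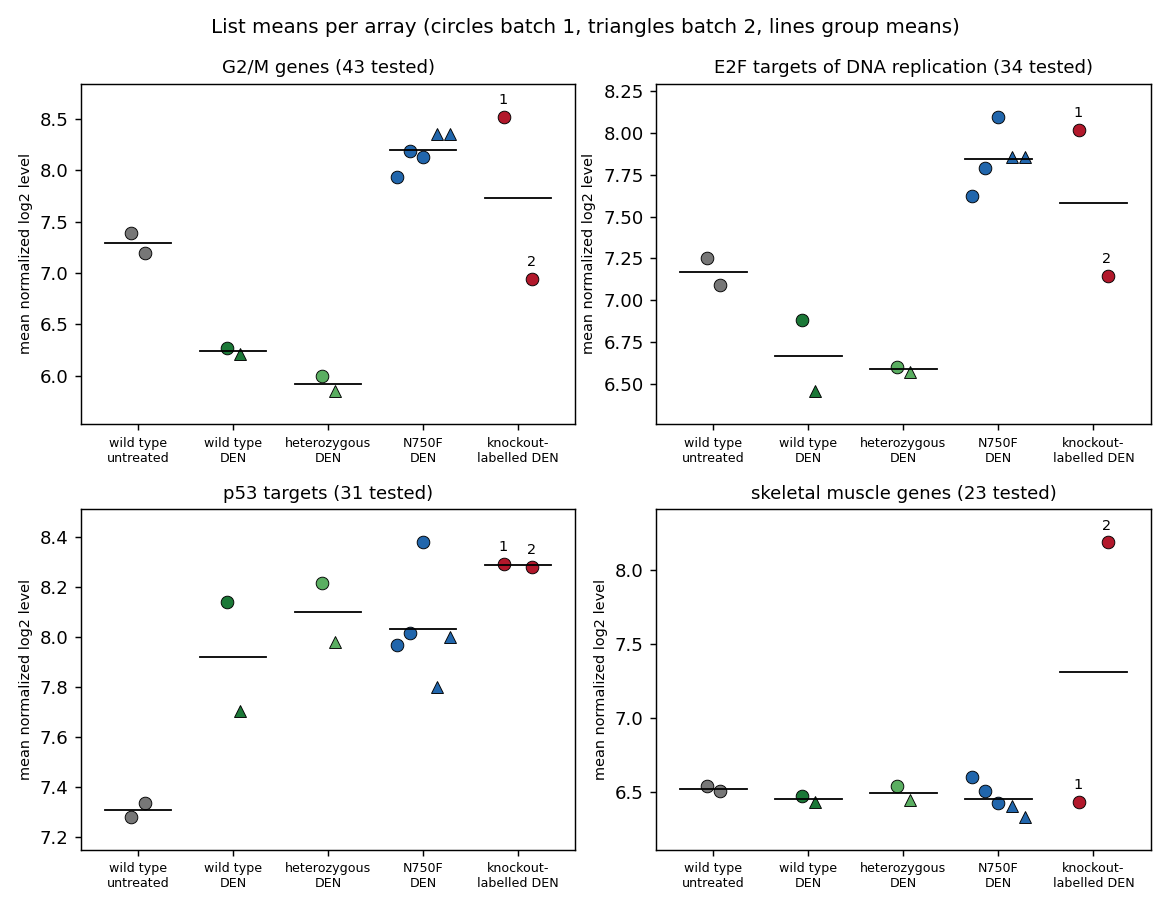
Mean normalized log2 level of 4 gene lists in each of the 13 arrays, by group on the horizontal axis. Circles are batch 1, triangles batch 2, lines group means, and the numbers mark the knockout-labelled arrays. For G2/M genes array 1 (8.52) sits above the N750F arrays and array 2 (6.94) below them, while for muscle genes array 2 (8.19) stands apart.

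Of the 43 G2/M genes, array 1 was above all N750F arrays for 20, within their range for 22 and below it for 1, against 15.9% above and 11.2% below over all genes tested. Array 2 was below all N750F arrays for 37 and within their range for 6, against 21.1% below over all genes. The groups as a whole were not separated: 0 of the 43 had all N750F arrays above both knockout-labelled arrays and 0 had them below, where 4.19% and 7.46% of all genes did. The median fitted difference was 0.34, beside 0.00066 over all genes. As plain differences without the batch term, N750F mean minus one knockout-labelled array, the medians were -0.40 against array 1 and 1.11 against array 2, beside -0.04 against either array over all genes. Medians against a single array below are of this plain kind. Whether more cells divide or each dividing cell holds more RNA cannot be told apart in whole liver.

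Ccna2, cyclin A2, which drives S phase and entry into mitosis, had 10.26, 10.41, 10.43, 10.08 and 10.30 in N750F, 10.90 in array 1 and 7.58 in array 2. Array 1 was the highest of the 7 arrays and array 2 the lowest, near the wild type livers with DEN (7.83 and 7.39). Birc5, the chromosomal passenger protein survivin, had 8.34 to 9.44 in N750F, 9.15 in array 1 and 5.67 in array 2. Bub1, a kinase of the spindle checkpoint, had 7.59 to 8.23, 8.21 and 5.09 in the same order. Top2a, the topoisomerase that untangles replicated chromosomes, had 10.14 to 10.46, 10.38 and 7.76. Mki67, the proliferation antigen Ki-67, had 9.66 to 10.06, 10.14 and 7.95. For the last 4 genes array 1 sat within or just above the N750F range while array 2 lay more than 1 below it.

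The fitted differences of these genes carried the spread between the 2 knockout-labelled arrays in their errors. They were 1.12 ± 0.59 for Ccna2 (adjusted p = 0.469), 1.45 ± 0.64 for Birc5 (0.393), 1.25 ± 0.58 for Bub1 (0.405), 1.32 ± 0.51 for Top2a (0.346) and 0.87 ± 0.42 for Mki67 (0.431). In the fit against array 2 alone 16 of the 43 were called higher in N750F and 0 lower, where 2.35% and 1.07% of all genes were, and against array 1 alone 0 were called. The signs for Ccna2, Birc5, Bub1 and Mki67 turned negative without array 2 (-0.54, -0.29, -0.31 and -0.23).

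Not all mitotic genes were low in array 2. Ccnb2, cyclin B2, had 8.26 to 8.97 in N750F, 9.04 in array 1 and 8.28 in array 2, against 6.66 and 6.78 in wild type livers with DEN. Ube2c, the ubiquitin-conjugating enzyme of the anaphase-promoting complex, had 9.13 to 9.38, 10.06 and 9.18, against 7.49 and 7.56 in wild type. For both genes array 2 lay within the N750F range and above wild type, and array 1 above the N750F range. The other genes for which array 2 stayed within the range were Bub3, Cdc20, Cks2 and Pttg1, a set singled out after values were seen. Array 2 was above both wild type DEN arrays for 33 of the 43 genes, between them for 7 and below them for 3 (Bub1, Nuf2 and Cdca8), where 33.4% of all genes were above. Array 1 was above both for 42 of the 43, and N750F arrays for 41 to 43.

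**Figure D2:**
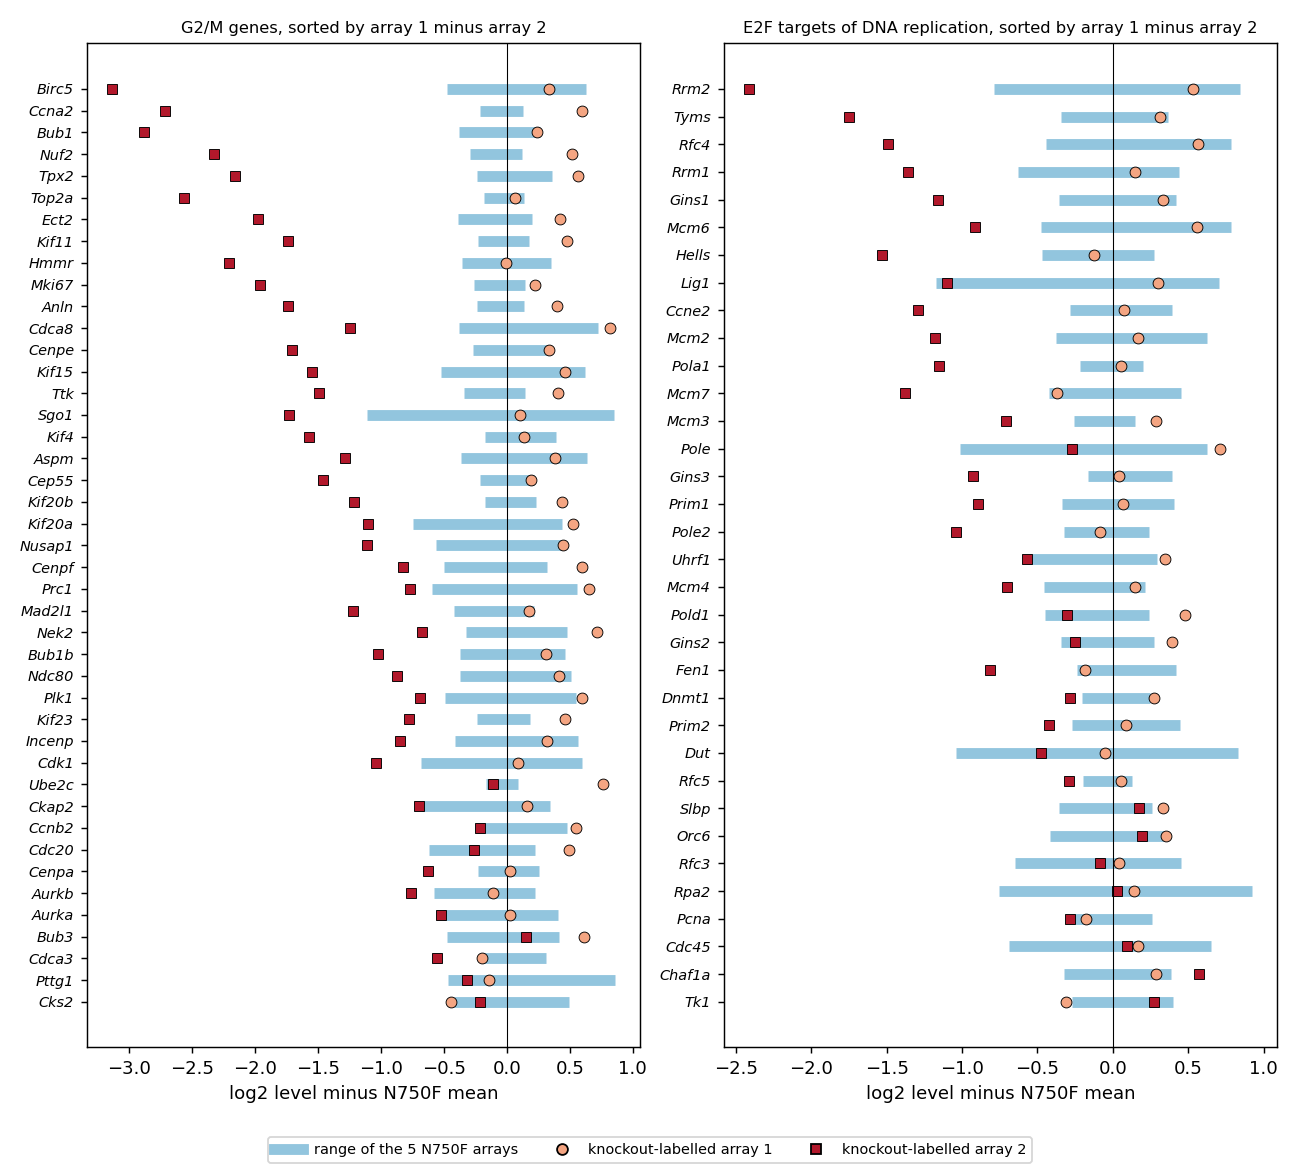
Range of the N750F arrays (bars) and the 2 knockout-labelled arrays (symbols) for G2/M genes and E2F targets, as log2 level minus the N750F mean. Array 1 lies mostly within or to the right of the bars and array 2 mostly to the left, with Ccna2, Birc5 and Bub1 among the genes farthest to the left.

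E2F targets of DNA replication had list means that placed array 1 among the N750F arrays and array 2 below them. The mean of 34 tested genes was 7.62, 7.79, 8.10, 7.86 and 7.85 in N750F, 8.02 in array 1 and 7.15 in array 2, with 6.88 and 6.46 in wild type livers with DEN and 7.25 and 7.09 in untreated ones. Array 1 was within the N750F range for 25 genes, above it for 8 and below it for 1, where 15.9% of all genes were above and 11.2% below. The array 1 counts were thus near those of all genes. Array 2 was below the range for 21, within it for 12 and above it for 1, where 21.1% of all genes were below and 24.5% above. The median difference was 0.31 (-0.16 against array 1 and 0.70 against array 2). In either direction 0 genes were separated from both arrays, where 4.19% of all genes were upwards and 7.46% downwards.

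Rrm2, the regulated subunit of ribonucleotide reductase, which makes deoxynucleotides, had 8.86, 9.19, 9.62, 7.99 and 8.20 in N750F, 9.30 in array 1 and 6.36 in array 2. Rrm1, the large subunit, had 8.15 to 9.22, 8.93 and 7.42. Mcm7, part of the replicative helicase, had 7.54 to 8.41, 7.59 and 6.58. In each case array 1 fell among the N750F values and array 2 below all of them. The fitted differences were 1.30 ± 0.55 (adjusted p = 0.373), 0.92 ± 0.35 (0.345) and 0.84 ± 0.40 (0.417). Ccne2, cyclin E2 of the start of S phase, had 8.60 to 9.27, 8.95 and 7.59, and Rrm2, Rrm1 and Ccne2 were among the 4 of the 34 called higher in the fit against array 2 alone, where 2.35% of all genes were.

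Promoters of a mitotic gene and a replication gene whose levels split the knockout-labelled arrays are shown, as the 250 bases before the start that RefSeq lists (GRCm38.p6, strand of the gene, 5′ to 3′). Capitals mark matches on either strand to E2F sites (TTTCCCGC, TTTGGCGC, TTTCGCGC or TTTGCCGC), to the cell cycle homology region (TTTGAA) and to CCAAT boxes (CCAAT). Top2a lies at chr11:99024190-99024439 on the minus strand.
Top2a: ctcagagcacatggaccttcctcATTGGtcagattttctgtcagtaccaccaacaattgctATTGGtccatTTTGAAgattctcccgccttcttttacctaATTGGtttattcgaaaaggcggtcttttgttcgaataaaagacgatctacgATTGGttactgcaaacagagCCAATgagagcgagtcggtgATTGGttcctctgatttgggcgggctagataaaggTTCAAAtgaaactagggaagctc
Mcm7 has 2 listed starts, and the window of the first lies at chr5:138171884-138172133 on the minus strand.
Mcm7: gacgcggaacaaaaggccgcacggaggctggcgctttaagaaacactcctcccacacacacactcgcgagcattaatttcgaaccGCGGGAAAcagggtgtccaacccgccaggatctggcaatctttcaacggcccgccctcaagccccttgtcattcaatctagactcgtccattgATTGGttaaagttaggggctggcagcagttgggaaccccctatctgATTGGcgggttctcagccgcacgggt
Top2a held 2 matches to the cell cycle homology region, 6 CCAAT boxes and 0 of these E2F letters, and Mcm7 held 1 E2F match and 2 CCAAT boxes. Of 38 G2/M genes with a listed start, 28.9% held TTTGAA, 71.1% a CCAAT box and 5.3% an E2F match. Of 28 E2F targets, 17.9%, 64.3% and 21.4% did, and of 11813 tested genes 12.4%, 35.5% and 2.8%. These are counts of letters in a short window and were not tested.

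Members of the RB and E2F system itself mostly overlapped between array 1 and N750F, as most genes did. Of 26 tested genes array 1 was within the N750F range for 22 and above it for 4, where it was above for 15.9% and below for 11.2% of all genes. Array 2 was within the range for 13, above it for 3 and below it for 10, where 24.5% of all genes were above and 21.1% below. The median difference was 0.15, but -0.10 against array 1 and 0.34 against array 2, and the fitted median turned to -0.045 without array 2. Lin9 and Lin54, subunits of the complex that carries RB relatives or MYB to cell cycle promoters, had 7.73 to 8.13 and 6.97 to 7.82 in N750F, 8.00 and 7.67 in array 1, and 6.82 and 6.21 in array 2. Lin52, another subunit, was the 1 member separated from both arrays, at 6.40 to 7.42 in N750F, 7.55 in array 1 and 7.83 in array 2 (difference -0.67 ± 0.30, adjusted p = 0.397). Of all genes 4.19% were separated upwards and 7.46% downwards. Rbl1, the RB relative p107, had 7.58 to 8.66, 8.59 and 7.44. Of 20 tested genes for chromatin proteins that bind the LXCXE cleft, array 1 was within the N750F range for 15 and above it for 5. Array 2 was within it for 9, above it for 3 and below it for 8. Over all genes array 1 was above for 15.9% and below for 11.2%, and array 2 for 24.5% and 21.1%. The medians of these 20 were -0.22 against array 1 and 0.21 against array 2. The histone demethylase gene Kdm5a had 9.44 to 10.04 in N750F, 9.69 in array 1 and 9.42 in array 2 (0.47 ± 0.22, adjusted p = 0.407).

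Targets of p53, the transcription factor stabilised by DNA damage, had like list means in the 2 knockout-labelled arrays. The mean of 31 tested genes was 7.97, 8.01, 8.38, 7.80 and 8.00 in N750F, 8.29 in array 1 and 8.28 in array 2. Both knockout-labelled arrays exceeded 4 of the 5 N750F arrays, and N750F array 3 was the highest of the 7. Untreated livers had 7.28 and 7.33. Ccng1, cyclin G1 and a standard p53 target, had 12.36 to 12.57 in N750F, 12.72 in array 1 and 12.46 in array 2, and 10.59 and 10.69 untreated (difference -0.08 ± 0.20, adjusted p = 0.898). The median difference of the list was -0.08 (-0.23 against array 1 and -0.19 against array 2; 0.025 in the fit without array 1), and 2 of 31 genes were separated upwards and 2 downwards, against 4.19% and 7.46% of all genes.

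The 2 p53 targets below both arrays were Btg2 and Plk3. Btg2, an antiproliferative gene also induced early after stress, had 8.26, 7.99, 8.42, 8.37 and 8.94 in N750F, 9.12 in array 1 and 10.44 in array 2 (-1.34 ± 0.41, adjusted p = 0.27). Plk3, a stress-responsive kinase, had 5.32 to 6.21, 6.56 and 7.09 (-0.86 ± 0.33, adjusted p = 0.341). Both were higher in array 2 than in array 1. Of 27 DNA repair genes, array 1 was within the N750F range for 19 and above it for 8, where it was above for 15.9% of all genes. Array 2 was below the range for 15 of the 27, where it was below for 21.1% of all genes. Their median difference was 0.17, but -0.13 against array 1 and 0.38 against array 2, and the fitted median was 0.49 without array 1 and -0.041 without array 2. Msh3 of mismatch repair had 7.21 to 7.78 in N750F, 7.31 in array 1 and 6.28 in array 2 (1.03 ± 0.32, adjusted p = 0.274).

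Genes separated from both knockout-labelled arrays numbered 1743 (11.7%), with 627 higher (4.19%) and 1116 lower (7.46%) in all N750F arrays. They are described here without a verdict on any one gene, since none passed the test. Of these, the 12 genes in each direction whose N750F mean lay farthest from the nearer knockout-labelled array were taken by a set rule.

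Metallothioneins are small cysteine-rich proteins that bind zinc and copper and are induced by metals, stress and glucocorticoids. Mt1 had 9.48, 9.92, 9.44, 10.88 and 10.92 in N750F, 11.54 in array 1 and 11.86 in array 2. Mt2, its neighbour, had 10.07, 10.16, 9.76, 11.02 and 10.86, against 11.62 and 11.80. All N750F arrays were below both knockout-labelled arrays, and the batch 2 arrays were the nearest to them. Untreated livers had 12.46 and 12.67 for Mt1, above all 7 arrays, and wild type livers with DEN had 10.38 and 11.06, below both knockout-labelled arrays. The difference was -1.90 ± 0.29 for Mt1 (95% interval -2.52 to -1.29) and -1.59 ± 0.24 for Mt2 (-2.11 to -1.06), both at an adjusted p of 0.0739. In batch 1 alone they were -2.08 (adjusted p = 0.0729) and -1.71 (0.0877), and N750F array 1, which shared high Y-linked RNA with the knockout-labelled arrays, lay between arrays 2 and 3 for both. With the Y-linked level in the model the differences were -2.16 (adjusted p = 0.254) and -1.64 (0.339). Against array 1 alone, which had no excess of muscle RNA, they were -1.75 and -1.50 (adjusted p = 0.46 for both).

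**Figure D3:**
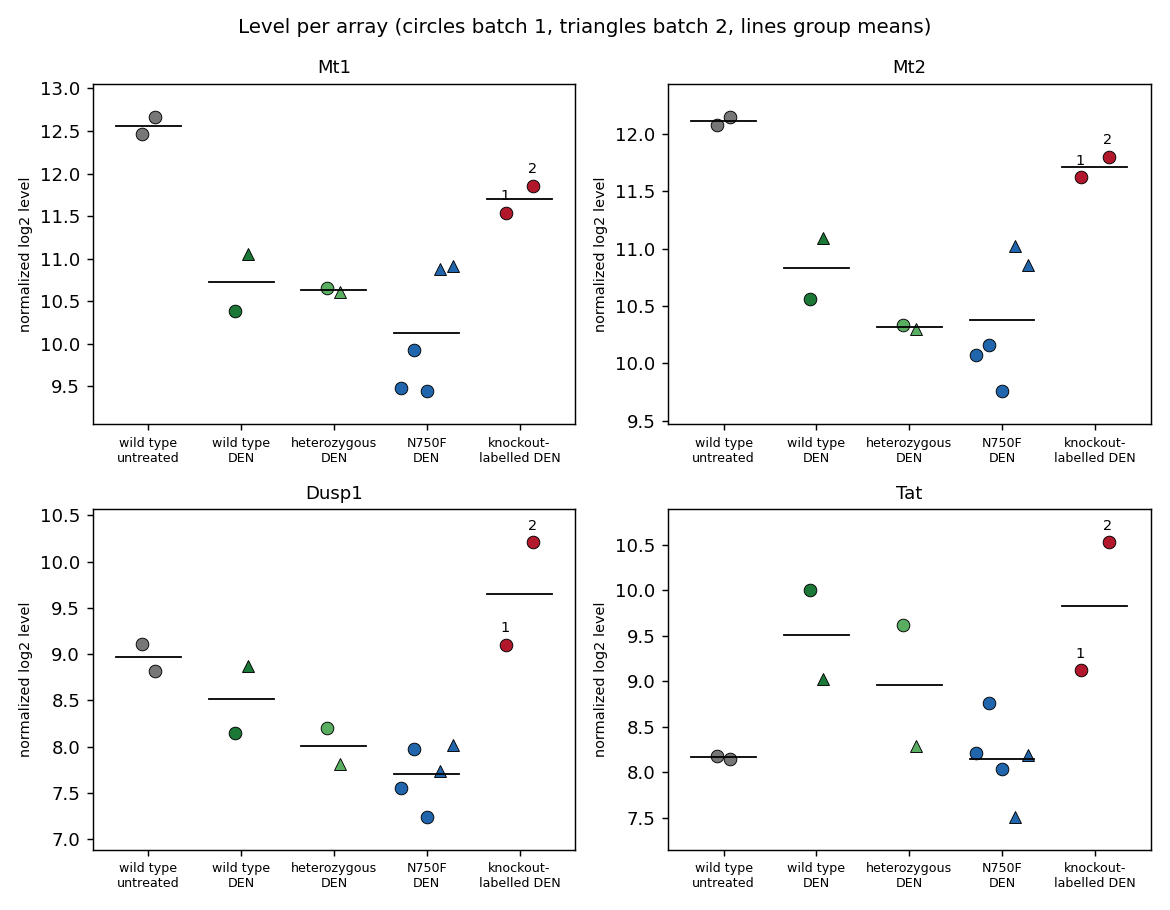
Normalized log2 level of Mt1, Mt2, Dusp1 and Tat in each of the 13 arrays by group, with circles for batch 1, triangles for batch 2 and lines for group means. For each gene all 5 N750F arrays lie below both knockout-labelled arrays, which carry their numbers.

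The windows before the starts of the 2 metallothionein genes are shown because these genes were among the 3 of smallest p (RefSeq, GRCm38.p6, both on the plus strand). Capitals mark the metal response element core, TGCACNC or TGCGCNC, on either strand. Mt1 lies at chr8:94178839-94179088.
Mt1: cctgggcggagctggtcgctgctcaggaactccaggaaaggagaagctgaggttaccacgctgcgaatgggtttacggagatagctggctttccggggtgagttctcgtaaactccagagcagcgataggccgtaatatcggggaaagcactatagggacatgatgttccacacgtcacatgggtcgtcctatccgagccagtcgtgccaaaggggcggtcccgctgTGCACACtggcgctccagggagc
Mt2 lies at chr8:94172368-94172617.
Mt2: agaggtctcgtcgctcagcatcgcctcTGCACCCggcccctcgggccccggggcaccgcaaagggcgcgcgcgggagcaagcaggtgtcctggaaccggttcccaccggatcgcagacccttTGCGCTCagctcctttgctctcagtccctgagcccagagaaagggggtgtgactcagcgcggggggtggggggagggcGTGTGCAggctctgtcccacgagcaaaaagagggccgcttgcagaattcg
Within these windows Mt1 held 1 match and Mt2 held 3, and 27.3% of 11813 tested genes held at least 1. Bases beyond the listed starts were not searched, so these are not counts for the whole promoters. The match is a description of these letters.

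Dpysl2, the other gene of smallest p, had 5.29, 5.79, 5.71, 7.27 and 7.12 in N750F, 7.21 in array 1 and 6.92 in array 2. N750F arrays 4 and 5, of batch 2, reached the knockout-labelled values, and arrays 1 to 3 lay below them. Wild type livers with DEN had 5.44 in batch 1 and 7.19 in batch 2. With batch in the model the difference was -1.46 ± 0.22 (95% interval -1.93 to -0.99, adjusted p = 0.0739), and without that term it was -0.83 (adjusted p = 0.856).

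Other genes at lower levels in all N750F arrays had varied roles. Dusp1, a phosphatase that switches off stress-activated kinases, had 7.56, 7.97, 7.24, 7.74 and 8.01 in N750F, 9.10 in array 1 and 10.21 in array 2 (-2.04 ± 0.32, adjusted p = 0.0782). Dusp6, a phosphatase of the kinase ERK, had 6.53 to 8.13, 9.16 and 8.88 (-1.23 ± 0.51, adjusted p = 0.369). Rgs16, which shortens G protein signals, had 6.65 to 8.94, 10.08 and 10.57 (-2.26 ± 0.53, adjusted p = 0.238). Array 2 was the higher knockout-labelled array for Dusp1 and Rgs16 and array 1 for Dusp6. Fosl2, a subunit of the AP-1 factor, had 5.12 to 6.01, 6.85 and 6.83 (-1.51 ± 0.41, adjusted p = 0.248). Mug1, a plasma protease inhibitor of the macroglobulin family, had 8.72 to 9.77, 10.56 and 10.60 (-1.34 ± 0.31, adjusted p = 0.238). The other 5 lower genes of the rule were Sprr1a (-1.89), B4galnt1 (-1.24), Srrm4 (-1.13), Spr (-0.81) and Ciapin1 (-0.48), with adjusted p-values of 0.27 to 0.723. Sprr1a, a protein of the cornified envelope, was highest in array 2 at 9.19, which also had 11.96 of the epithelial keratin Krt13 against 5.68 in array 1 and 5.55 to 6.56 in N750F.

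Genes at higher levels in all N750F arrays were as mixed. Paqr7, a membrane progestin receptor, had 5.83, 7.33, 7.55, 6.90 and 7.16 in N750F, 4.45 in array 1 and 4.62 in array 2 (2.71 ± 0.54, adjusted p = 0.215). Zeb2, a transcriptional repressor, had 8.24 to 9.54, 7.86 and 6.89 (1.25 ± 0.32, adjusted p = 0.238). Nifk, a nucleolar protein that binds Ki-67, had 7.81 to 8.53, 6.98 and 7.07 (1.03 ± 0.25, adjusted p = 0.238). For Paqr7 and Nifk the knockout-labelled arrays were within 0.2 of each other. Gbp11, an interferon-inducible guanylate-binding protein, spread from 8.48 to 11.50 in N750F, with 8.10 and 7.60 in the knockout-labelled arrays (2.09 ± 0.75, adjusted p = 0.319). Ube2l6, the enzyme that conjugates the ubiquitin-like ISG15, had 6.80 to 7.93, 6.37 and 6.39 (1.10 ± 0.28, adjusted p = 0.238). The other 7 were Rps2 (1.42), Srpr (1.31), Mme (1.30), Tex48 (1.00), Taldo1 (0.96), Olfr566 (0.90) and Uqcrq (0.56). Rps2 encodes a ribosomal protein and its probes may share signal with related gene copies.

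**Figure D4:**
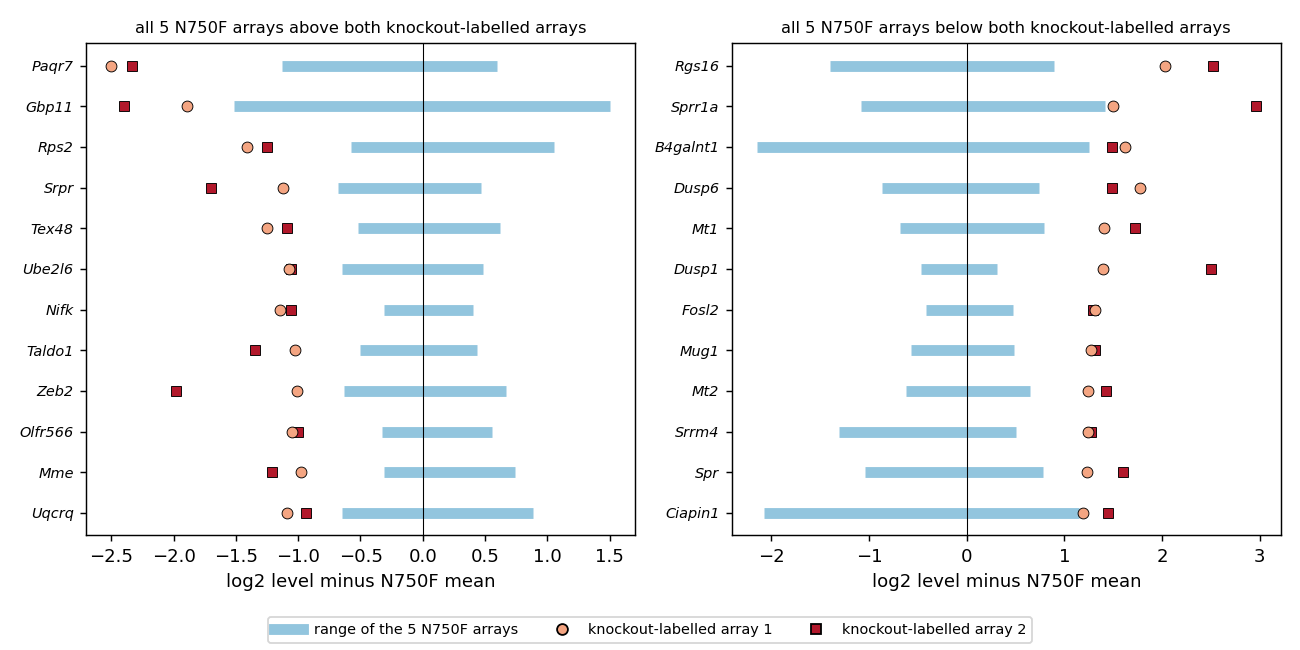
The 12 separated genes in each direction whose N750F mean lay farthest from the nearer knockout-labelled array, as log2 level minus the N750F mean. Bars span the 5 N750F arrays, circles are array 1 and squares array 2. Both symbols lie beyond the bar for each gene, by which the genes were chosen.

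Of 30 hepatocyte genes the median difference was 0.03, with 1 separated from both arrays upwards and 3 downwards, where 4.19% and 7.46% of all genes were. Of 44 cytochrome P450 and drug metabolism genes it was -0.11 (-0.05 against array 1 and -0.38 against array 2; -0.315 in the fit without array 1 and 0.025 without array 2), with 1 upwards and 5 downwards, beside the same 4.19% and 7.46%, and 11 at an unadjusted p below 0.05 in the lower direction, where 5.87% of all genes were. Cyp4f14, a fatty acid hydroxylase, had 7.13 to 8.10 in N750F, 8.27 in array 1 and 8.91 in array 2 (-0.99 ± 0.27, adjusted p = 0.248). Ugt2b34, a glucuronosyltransferase, had 8.37 to 10.37, 9.53 and 8.32 (1.36 ± 0.34, adjusted p = 0.238), so its groups overlapped. Of 29 genes of the urea cycle and amino acid catabolism, array 2 was above the N750F range for 14, against 24.5% of all genes. Their median was -0.14 (0.00 against array 1 and -0.34 against array 2; -0.255 in the fit without array 1 and 0.055 without array 2). Tat, the tyrosine aminotransferase, had 8.22, 8.76, 8.03, 7.51 and 8.19 in N750F, 9.12 in array 1 and 10.52 in array 2 (-1.36 ± 0.36, adjusted p = 0.247). Slc25a15, the mitochondrial ornithine carrier, had 9.43 to 10.20, 10.38 and 11.27 (-1.10 ± 0.28, adjusted p = 0.238).

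The list of acute phase genes had 5 of 26 members below both arrays, where 7.46% of all genes were. They were Hpx, Lcn2, Saa4 and the metallothioneins Mt1 and Mt2, which are described above and are counted here again. Hpx, the haem carrier hemopexin, had 10.87, 11.09, 10.76, 10.66 and 10.91 in N750F, 11.66 in array 1 and 11.63 in array 2 (-0.71 ± 0.20, adjusted p = 0.255). Lcn2, the siderophore-binding lipocalin 2, had 6.91 to 7.70, 8.68 and 8.06 (-0.94 ± 0.36, adjusted p = 0.337). The median over the list was -0.16 (-0.15 against array 1 and -0.09 against array 2). In the synthesis of polyunsaturated fatty acids, Elovl2, an elongase, had 10.12 to 10.92 in N750F, 9.67 in array 1 and 9.58 in array 2 (0.97 ± 0.27, adjusted p = 0.248), and Fads1, a desaturase of the same pathway, had 8.14 to 9.09, 7.85 and 7.56 (0.84 ± 0.30, adjusted p = 0.305). The 21 fatty acid synthesis genes had a median of 0.27 (0.03 against array 1 and 0.19 against array 2), with 3 separated upwards and 1 downwards. The 17 cholesterol synthesis genes had a median of 0.26 (0.01 and 0.31), with 2 upwards and 0 downwards. Over all genes 4.19% were separated upwards and 7.46% downwards.

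Interferon response genes had 4 of 28 members above both knockout-labelled arrays (Trim30a, Psmb9, Ifit2 and Ifi35) and 0 below, beside 4.19% and 7.46% of all genes. Trim30a, an interferon-inducible ubiquitin ligase, had 8.71, 8.92, 7.99, 8.16 and 8.04 in N750F, 7.91 in array 1 and 7.70 in array 2 (0.78 ± 0.29, adjusted p = 0.326). Psmb9, a subunit of the immunoproteasome, had 6.99 to 7.80, 6.43 and 6.58 (0.68 ± 0.26, adjusted p = 0.341). The list's fitted median difference was 0.35, while its plain medians were 0.00 against array 1 and 0.39 against array 2.

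Markers of macrophages and Kupffer cells had a fitted median of -0.01 over 20 genes. Their plain medians were 0.25 against array 1 and -0.15 against array 2. The fitted medians of other cell types were -0.04 over 9 neutrophil genes, -0.06 over 13 erythroid genes, -0.10 over 12 lymphocyte genes and 0.02 over 22 stellate cell and matrix genes. The 22 sinusoidal endothelial genes had a median of 0.26 with 5 higher at an unadjusted p below 0.05 and 0 lower, where 6.32% and 5.87% of all genes were. Their mean level was 7.40, 7.83, 7.64, 7.34 and 7.31 in N750F arrays 1 to 5, 7.42 in array 1 and 7.34 in array 2, so N750F arrays 2 and 3 were high and the others near the knockout-labelled arrays. Among them Kdr, the receptor for vascular endothelial growth factor, had 7.39 to 8.50 in N750F, 7.63 in array 1 and 7.14 in array 2 (0.91 ± 0.25, adjusted p = 0.25). The 9 bile duct genes had a median of 0.16.

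Other single genes also placed the 2 knockout-labelled arrays on opposite sides of all N750F arrays. Array 1 was above and array 2 below for 356 genes (2.38%), and the converse held for 282 (1.89%). Hamp, the iron hormone hepcidin, had 7.54 to 9.59 in N750F, 10.40 in array 1 and 6.86 in array 2. Thbd, the endothelial thrombomodulin, had 8.12 to 8.69, 9.94 and 7.32. Isg20l2, a nucleolar exonuclease, ran the other way, with 5.41 to 6.82, 5.04 and 7.35. For such genes the fitted differences were small (-0.12 ± 0.72 for Hamp, -0.06 ± 0.54 for Thbd and -0.43 ± 0.44 for Isg20l2) although the arrays disagreed.

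Against array 1 alone the 4 genes called were Cxcl1, S100g and Mdm1, lower in N750F, and Lypd10, higher. Cxcl1, a neutrophil-attracting chemokine, had 6.41 to 8.48 in N750F, 10.25 in array 1 and 7.18 in array 2. S100g, a calcium-binding protein, had 6.47 to 7.57, 9.34 and 7.47, and Mdm1, a microtubule-binding protein of centrioles, had 6.90 to 7.49, 9.86 and 7.31. Lypd10 had 6.06 to 6.89, 4.11 and 6.98. In each gene the values of array 2 lay at or near the N750F range, so the calls rest on array 1.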

How the data were processed

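RNA from frozen liver was amplified with WT-Ovation Pico and hybridised to Affymetrix arrays, per the labels' protocols. The deposited values were 1 linear intensity per probe set (35556) and array (13), from 0.000427 to 17831. The submitters' processing notes name RMA and Affymetrix Expression Console 1.1, and the genome build was not given in the sources used here. Intensities were quantile-normalized over the 13 arrays and log2 of the value plus 16 was used, so that changes of dim genes are understated. The offset, the comparison and the gene lists were chosen with earlier results of these data known. Of the probe sets, 21789 had 1 symbol in the platform annotation, 1621 had several and name no gene, and 12146 were not listed. Symbols were updated through Entrez IDs for 21698 (GRCm38.p6). The probe set of highest mean stood for a gene (19938), and genes with a mean under the 25th percentile were left out, which left 14953.

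A limma 3.58.1 model (lmFit, eBayes, R 4.3.3) over the 13 arrays held 5 groups and the array batch in the labels' raw array names, with 7 residual degrees of freedom. Every adjusted p is from limma with Benjamini-Hochberg adjustment over all genes tested. The number of arrays limits the precision. Of 762 entries in 25 lists, 65 had no probe set with a single symbol, 112 were left out as dim and 585 were tested, 10 through an older symbol. The Rb1 gene came first. Then came 12 genes a direction with all N750F arrays beyond both knockout arrays. These were ranked by the plain difference between the N750F mean and the nearer knockout array. The smallest p, the largest differences and genes with the knockout arrays on opposite sides followed. Up to 4 members a list and genes called with 1 knockout array left out were last. Predicted loci, small RNAs, Xist, Tsix and Y-linked genes were left out, while other X-linked genes, such as S100g, were kept. On simulated data with 200 changed genes, 8 of 132 calls were false. Promoters came from RefSeq. Alternatives changed the scaling, offset, filter, probe sets, batch, arrays, weights and covariates.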

Additional observations from a re-analysis of the deposited data

Results flagged for a closer look

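Among the 5 N750F arrays, an array far from the others was sought for each named gene and list mean. Of 126 such groups 5 had one, and chance alone flags about 1 in 20. N750F array 4 stood apart for Srrm4 (low, 5.36), for the muscle troponin gene Tnni2 (low, 5.79), for Acadl, an enzyme of fatty acid oxidation (high, 11.50), and for Ccnb2 (high, 8.97). N750F array 1 stood apart in the mean of the sex-linked genes (8.45), as the 1 array of its group with high Y-linked RNA.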

How the results depend on the processing

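The values compared are 0 genes called and the list medians, 0.307 (E2F targets) and 0.341 (G2/M). The count was 3 with an offset of 50 (Mt1, Mt2 and Dusp1, lower in N750F) and 1 with the replicate block (Gbp11, 3.26, adjusted p = 0.028). The labels do not say that replicate numbers pair the mice, and deviations of same-numbered N750F and knockout-labelled arrays correlated at 0.015 and -0.131. Leaving out each array in turn gave 0 to 511 calls: 511 without knockout-labelled array 1, 4 without array 2, and 2 (Mt1 and Mt2) without either heterozygous array. Over the same settings the E2F median ran from -0.178 without array 2 to 0.72 without array 1, and the G2/M median from -0.391 to 0.928. Some genes changed sign between the fits without array 1 and without array 2, in this order: Krt13 -6.204 and 0.079, Myh8 -5.91 and 0.33, Tpm2 -5.304 and 0.049, Tnni2 -3.948 and 0.206, Hmmr 2.095 and -0.1, Birc5 3.188 and -0.286, Bub1 2.811 and -0.305, Ccna2 2.774 and -0.54, Rrm2 2.772 and -0.175, Mki67 1.961 and -0.226, Lypd10 -0.557 and 2.311, Mdm1 0.001 and -2.54, Ccnb2 0.143 and -0.619, Ube2c 0.32 and -0.559. Each such fit keeps 1 knockout-labelled array. Of 101 named genes followed through 25 alternatives, 2493 values kept their direction and these 14 did not. The cause of the single calls under the offset, the block and the heterozygous arrays was not tested. The other settings, batch 1 alone, no batch term and the Y-linked level as a covariate among them, gave 0 calls.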

Other observations

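Genes known to be induced by glucocorticoids in liver are described here from a list written after values had been seen, and 0 of its members passed the test (limma), with 11 lower at an unadjusted p below 0.05 (5.87% of all genes). All 17 tested members had fitted differences below 0, from -2.04 to -0.06 with a median of -0.94 (-0.64 against array 1 and -1.11 against array 2). For 7 of them all N750F arrays lay below both knockout-labelled arrays, where 7.46% of all genes did. Because the list was written with these values known, its counts beside all genes are a description and give no test. Its lowest difference is that of Dusp1, and its lowest adjusted p (0.0739, limma) also belongs to a gene described above. For 9 of the 17 array 1 was within the N750F range. The list mean was 8.63 to 9.15 in N750F, 9.50 in array 1, 10.10 in array 2, 9.18 and 9.21 in wild type livers with DEN and 9.32 and 9.38 in untreated ones. Tsc22d3, the glucocorticoid-induced leucine zipper, had 7.51, 8.14, 8.31, 9.08 and 9.12 in N750F, 9.11 in array 1 and 9.90 in array 2 (-1.48 ± 0.27, adjusted p = 0.157). Sgk1, a serum- and glucocorticoid-regulated kinase, had 7.05 to 8.31, 8.17 and 8.83 (-1.22 ± 0.36, adjusted p = 0.255). Neither gene passed the test, and the groups overlapped for both.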
